A study of Mus musculus with 34 samples.

Results

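The collagen genes are described here as they were expressed in mouse mammary adenocarcinoma cells carrying different forms of the glucocorticoid receptor (GR). Members were taken by name, as every gene symbol made of Col, a number, the letter a and a number. Of 55341 gene names in the count tables, 44 had such a name, and 28 of these had counts above 10 in at least 2 of 34 libraries and were kept. The kept genes cover 9 of 11 fibril-forming chains, 4 of 6 type IV chains, 4 of 6 type VI chains, 5 of 9 fibril-associated chains, both multiplexins, 1 of 3 short-chain network-forming chains, 1 of 4 transmembrane chains and 2 of 3 others. The 16 genes left out summed to 6 to 35 reads per library. Just inside the threshold stood Col15a1, with 2 libraries above it and at most 18 counts, and just outside it Col14a1 and Col2a1, with 1 library each at 11 counts.

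Collagens are secreted proteins in which 3 chains wind into a triple helix, and each chain has its own gene. Fibril-forming collagens such as types I, III and V give tissues tensile strength, type IV forms the network of basement membranes, and type VI forms beaded filaments close to cells. In the mammary gland, fibrillar collagens are known mainly as products of stromal cells, and glucocorticoids are known to lower collagen synthesis in skin and bone.

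The cells derive from the 3617 mammary adenocarcinoma line, had their own GR knocked out, and stably express a GFP-tagged mouse GR, either wild type (WT) or one of the forms named D647V, D647V-Tetra, Y551A and Y551A-Dim. No label explains the names Dim and Tetra. All cells were grown with 5 ug/ml tetracycline, held at least 24 h in 10% charcoal-stripped serum, and then treated for 2 h, either with dexamethasone (Dex), a synthetic GR agonist, at 100 nM or with ethanol alone (EtOH). Drosophila S2 cells (5%) were added to every harvest as a spike-in and were not used here for scaling.

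The 34 total RNA libraries form 2 sets by their numbering. WT, Y551A and Y551A-Dim make up set 1, at 3 EtOH and 3 Dex libraries a line. D647V and D647V-Tetra, likewise at 3 and 3, make up set 2 together with a second WT series of 2 EtOH and 2 Dex libraries. Every column header of set 2, and none of set 1, carries the word "resent", and the labels name 2 library kits without saying which library was made with which. Lines were therefore compared only within their own set, with its WT or with each other. There is 1 line for each receptor form, so a difference between receptor forms cannot be told apart from another difference between lines. The labels do not say whether replicates were separate cultures. If they were not, the p-values measure only technical spread.

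Between 44998213 and 70124595 reads were counted per library of set 1, and between 60277930 and 79776573 per library of set 2. The receptor transcript Nr3c1 was present in all 34 libraries, at 234 to 380 CPM (read counts scaled to library size), and counts per gene do not separate the knocked-out gene from the introduced one. The Dex-induced genes Tsc22d3 and Per1 passed the test as higher with Dex in every line. The library that correlated least with the rest of its set was replicate 1 of D647V-Tetra EtOH (median Spearman correlation across genes 0.9863). For cells labelled as mammary adenocarcinoma, the general epithelial markers were absent or near 0: Epcam and Cldn7 had 0 counts in all 34 libraries, Cdh1 was at 0 in 20 of 34, and Krt8 did not exceed 0.797 CPM. Some mammary epithelial markers were present in all 34 libraries, namely Gata3 (5.08 to 22.0 CPM), Esr1 (2.99 to 5.34) and Krt14 (2.46 to 19.7). The luminal list, of which 2 of 9 had a median above 1 CPM, summed to 8.51 to 26.3 CPM, and the basal list, of which 1 of 7 did, to 3.79 to 20.8 CPM. All 7 mesenchymal markers, Vim among them, had a median above 1 CPM. Of the 10 fibroblast markers 5 did, including Pdgfrb at 106 to 202 CPM, while Fap was at 0 in all 34 libraries, Thy1 in 33 and Lum in 30. The fibroblast list summed to 190 to 290 CPM and the general epithelial list to 0.177 to 0.797 CPM over all libraries.

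Collagen reads made up 0.584% to 1.015% of the counted reads of a library. To compare genes, CPM was divided by the summed exon length, giving CPM per kb. By the median over 34 libraries, 14 of 28 genes stood above 10 CPM per kb and 1 more above 1. Col1a2, the alpha-2 chain of type I collagen, was highest (median 197 CPM per kb, range 131 to 221). It was followed by the type IV chain Col4a1 (148, range 105 to 232) and the type V chain Col5a2 (105, range 85.5 to 116). Next came the type VI chains Col6a1 (89.8, range 59.2 to 194) and Col6a3 (78.3, range 43.1 to 133). The multiplexin Col18a1, whose C-terminal fragment is endostatin, had a median of 61.3, and the type IV chains Col4a2, Col4a5 and Col4a6 had medians of 54.5, 38.5 and 23.8. Neighbours in this order overlapped in range and are ordered by their medians only, except Col4a5 (29.3 to 43.7) and Col4a6 (18.1 to 27.9), whose ranges were apart. Below a gap between Col8a1 (median 10.5, lowest 8.65) and Col3a1 (median 1.10, highest 1.43) lay 14 genes, Col3a1 first, and 6 of them had a median at or below 0.1 CPM per kb.

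**Figure D1:**
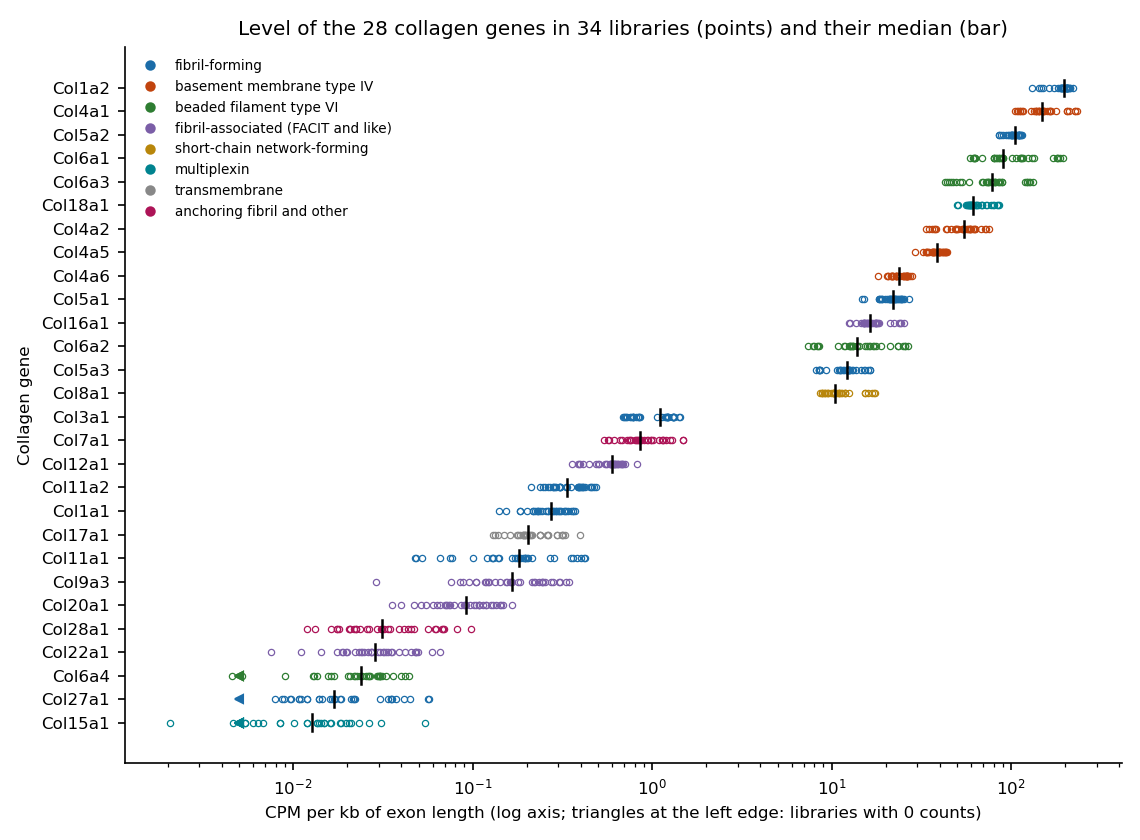
Level of each of the 28 collagen genes in CPM per kb of exon length (log axis), with a point for each of the 34 libraries, a bar at the median and colours for the families. Col1a2 has the highest median and Col15a1 the lowest, and 14 genes have medians above 10 CPM per kb.

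Chains that assemble with each other stood at like levels in some pairs and far apart in others. The type I helix is made of alpha-1 and alpha-2 chains, yet Col1a1 had 64 to 183 counts per library against 94488 to 209014 for Col1a2. Per length, Col1a2 was 492 to 1016 times as high as Col1a1 in the 34 libraries (median 713.5 times). This gap was present in every line and both treatments. The type III chain Col3a1, which forms a different collagen, was also low, and its neighbour on chromosome 1, Col5a2, stood 67.9 to 150.1 times above it. In contrast, Col4a5 and Col4a6, which share a start region on the X chromosome and lie 1309 bases apart on opposite strands, kept a ratio of 1.51 to 1.69 over all libraries. Col4a1 over Col4a2, a head-to-head pair on chromosome 8 whose gene models overlap at their starts, ranged from 2.39 to 3.33, and Col6a1 over Col6a2 from 5.77 to 8.04. Col6a3 over Col6a1 ranged from 0.588 to 1.01.

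The clearest differences between lines were in the type VI chains, which code for the filament-forming alpha-1, alpha-2 and alpha-3 chains of one protein. Col6a1 (mm10 chromosome 10, 76708792 to 76726168) and Col6a2 (chromosome 10, 76595762 to 76623630) lie 85162 bases apart on the minus strand, and Col6a3 lies on chromosome 1 (90765923 to 90843971, minus strand). Against WT, these chains moved together in the Y551A lines and Col8a1 moved the other way. In D647V and D647V-Tetra, Col8a1 was lower than in WT, as Col6a1 and Col6a2 were. For these genes, chosen by their changes, the 120 bases upstream of each annotated gene start are shown, 5′ to 3′ on the minus strand, from RefSeq (GRCm38.p6). Other called genes, such as Col11a1, are not shown, and the part of these bases in the changes was not tested. Capitals mark GGGCGG or its reverse complement.
Col6a1, chr10:76726169-76726288: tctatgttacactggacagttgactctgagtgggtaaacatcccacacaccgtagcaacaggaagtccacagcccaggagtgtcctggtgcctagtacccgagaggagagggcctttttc
Col6a2, chr10:76623631-76623750: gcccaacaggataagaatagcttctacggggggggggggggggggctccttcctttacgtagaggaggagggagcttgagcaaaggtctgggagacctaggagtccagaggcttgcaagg
Col6a3, chr1:90843972-90844091: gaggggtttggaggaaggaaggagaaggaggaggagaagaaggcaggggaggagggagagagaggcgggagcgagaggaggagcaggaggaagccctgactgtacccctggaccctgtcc
Col8a1, chr16:57754738-57754857: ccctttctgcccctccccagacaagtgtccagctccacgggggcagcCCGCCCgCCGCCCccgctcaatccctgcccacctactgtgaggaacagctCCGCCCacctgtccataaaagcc

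Within these 120 bases Col8a1 held GGGCGG and the type VI genes held none of the letters searched. In the longer windows of 300 bases Col6a2 and Col6a4 held GGGCGG too. The search covered both strands of the RefSeq windows from 250 bases before to 50 after each start, which exist for 23 of the 28 kept genes. The full palindromic GR element (AGAACA, 3 free bases and TGTTCT) was in none of the 23 and in 0.01% of 32851 promoters, and its end AGAACA, which overlaps it, was in 1 (Col20a1) against 18.97% of promoters. The AP-1 letters TGACTCA were in 1 (Col6a1) against 5.2%, TATAAA in 3 against 13.62%, and CCAAT in 11 against 37.41%. GGGCGG was in 16 of the 23, against 35.66% of all promoters. A collagen gene is counted where any of its windows held the letters, while the share of promoters is over single windows. The counts and shares are therefore unlike measures, and a gene with several windows has more room for a match. These matches describe letters in a window and say nothing about binding.

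Without hormone, 16 of 27 tested collagen genes differed between Y551A and WT, 13 higher and 3 lower in Y551A. Among all 16140 genes tested, 42.5% were called in this comparison, 18.9% higher and 23.5% lower. The kept collagen genes are long, with 3853 to 15228 exon bases. Among genes with an average log2 CPM above 1, 56.1% of those with 4 to 8 kb of exon were called (23.7% higher). Of those over 8 kb, 56.5% were called (34.9% higher), so the share of 16 of 27 lies near that of long genes. The median change of the members was 0.25 log2, against -0.001 over all genes. Fewer cells of a kind and less RNA per cell cannot be told apart in such bulk libraries. Marker lists moved with this comparison: in EtOH the basal list summed to 5.67 to 5.99 CPM in WT and 19.4 to 20.8 in Y551A, the endothelial list to 10.97 to 11.17 and 4.21 to 5.39, the mesenchymal list, most of it Vim and Fn1, to 7606 to 7866 and 8736 to 9041, and the fibroblast list to 248 to 254 and 262.5 to 274. Of the basal list Krt5 was at 0 in 28 and Krt17 in 22 of 34 libraries, and of the endothelial list Kdr in 26. These sums follow few genes. Over all libraries Krt14 reached 19.7 CPM and the next basal marker, Trp63, 2.09. Only Cdh5 and Emcn of the endothelial list had a median above 1 CPM, and Pdgfrb was the highest of the fibroblast list. The part of these markers in the collagen differences was not tested. Col6a1 stood at 275, 268 and 272 CPM in WT and at 788, 753 and 819 in Y551A, with no overlap. It was higher by 1.54 ± 0.049 log2 (SE, edgeR adjusted p = 1.16e-18). Col6a2 went from 68.9, 66.2 and 70.9 to 208, 194 and 214 CPM (1.58 ± 0.055), and Col6a3 from 540, 551.5 and 625 to 1468, 1427 and 1531 CPM (1.37 ± 0.050). For all 3 chains, every Y551A library was above every WT library. Lack of overlap by itself was common here, in 50 of the 70 partner genes described below. The remaining type VI gene, Col6a4, had at most 29 counts in any library and was called lower (-2.63 ± 0.828), a call that was lost without WT EtOH replicate 2 (adjusted p = 0.0738) or Y551A EtOH replicate 2 (0.0713).

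The type IV genes split by pair. Col4a1 rose from 859, 814 and 835 CPM in WT to 1535, 1533 and 1698 in Y551A (0.93 ± 0.057, adjusted p = 7.17e-13). Col4a2 went from 247, 239 and 248 CPM to 452, 413 and 478 (0.87 ± 0.067). The values of the lines did not overlap for either gene. Col4a5 (0.07 ± 0.038) and Col4a6 (-0.04 ± 0.037), the chains of the X-linked pair, were not called. Their CPM values in Y551A EtOH were 271, 283 and 292 for Col4a5 and 202, 200 and 210 for Col4a6, overlapping the WT ranges of 266 to 273 and 207 to 213.

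Of the 9 fibril-forming genes, 4 were called higher and 1 lower in Y551A. Col5a3, a minor type V chain, was higher by 0.85 ± 0.052, Col5a1 by 0.25 ± 0.051 and Col5a2 by 0.13 ± 0.041 (984, 958 and 954 CPM in WT, 1053, 1025 and 1086 in Y551A), and the low gene Col27a1 was also called (1.88 ± 0.648) with overlapping values. Without Y551A EtOH replicate 3 the Col5a2 call was lost (adjusted p = 0.0746), and that of Col27a1 was lost without WT EtOH replicate 3 (0.0841) or Y551A EtOH replicate 1 (0.251). Col11a1, a chain of cartilage-type fibrils, was at 4.65, 5.33 and 5.13 CPM in WT and 0.606, 0.665 and 0.98 in Y551A, a change of -2.75 ± 0.182 (adjusted p = 3.06e-12). Col1a2, the most abundant chain, was not called: it was at 2530, 2541 and 2599 CPM in WT and 2384, 2345 and 2536 in Y551A (-0.08 ± 0.041, adjusted p = 0.131). Col1a1, at 1.95, 1.69 and 2.168 CPM in WT and 1.43, 1.47 and 2.02 in Y551A, was not called either.

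Members of other families called higher were the fibril-associated Col12a1 (0.69 ± 0.084) and Col16a1 (0.42 ± 0.059), Col18a1 (0.42 ± 0.054) and Col7a1 (0.46 ± 0.097), the anchoring fibril collagen of skin. The short-chain network-forming Col8a1 was lower, at 135, 137 and 132 CPM in WT against 86.5, 89.6 and 93.3 in Y551A (-0.59 ± 0.0395, adjusted p = 3.97e-12). All WT libraries were above all Y551A libraries for Col8a1.

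In Y551A-Dim, 13 of 27 genes differed from WT, 9 higher and 4 lower, where 23.3% of all genes were called, 10% higher and 13.3% lower. Among genes with an average log2 CPM above 1, 29.1% were called from 4 to 8 kb of exon (10.6% higher). Over 8 kb it was 32.1% (19.8% higher). This comparison uses the same WT EtOH libraries as the last, so values are given side by side. Col6a1 was at 469, 501 and 445 CPM (0.80 ± 0.048 against WT), Col6a2 at 131, 128 and 116 CPM (0.86 ± 0.055) and Col6a3 at 1041, 1060 and 979 CPM (0.84 ± 0.049). Each of these lay between the WT and Y551A libraries with no overlap on either side. Of the 70 partner genes described below, 28 did not overlap with WT and 42 did not overlap with Y551A. Col4a1, at 1104.5, 1209 and 1023 CPM, and Col4a2, at 329, 355 and 288, were higher than in WT by 0.41 ± 0.057 and 0.40 ± 0.067, while Col4a5 (-0.15 ± 0.038) and Col4a6 (-0.28 ± 0.037) were lower. Col4a6 was at 174, 181 and 164 CPM against 213, 210 and 207 in WT. Col11a1 was at 1.28, 1.76 and 1.65 CPM (-1.69 ± 0.166) and Col8a1 at 82.4, 85.8 and 81.4 CPM (-0.70 ± 0.040), both below every WT library. The basal list summed to 8.33 to 9.64 CPM and the endothelial list to 4.24 to 4.39 in these libraries, both outside the WT range. Col1a2, at 2534, 2741 and 2425 CPM, was not called.

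Set directly against Y551A, Y551A-Dim had 13 of 27 genes called, 2 higher and 11 lower, beside 29% of all genes (14.8% higher, 14.2% lower). Among genes with an average log2 CPM above 1, 41.4% were called from 4 to 8 kb of exon (19.9% higher). Over 8 kb it was 39.8% (16.3% higher). The type VI chains were lower (Col6a3 -0.52 ± 0.049, Col6a2 -0.72 ± 0.053, Col6a1 -0.74 ± 0.048), as were all 4 type IV chains (Col4a1 -0.51, Col4a2 -0.47, Col4a6 -0.24, Col4a5 -0.22). Col11a1 was higher by 1.06 ± 0.196 and Col6a4 by 2.51 ± 0.839, the latter at 0 to 4 counts per Y551A EtOH library. The Col6a4 call was lost without Y551A EtOH replicate 1 (adjusted p = 0.066) or 2 (0.125) or Y551A-Dim EtOH replicate 1 (0.127). That of Col8a1 (-0.11 ± 0.040, adjusted p = 0.0391) was lost without any of 4 libraries: Y551A EtOH replicate 2 or 3, or Y551A-Dim EtOH replicate 1 or 3, and also without the low-count filter (0.0734).

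**Figure D2:**
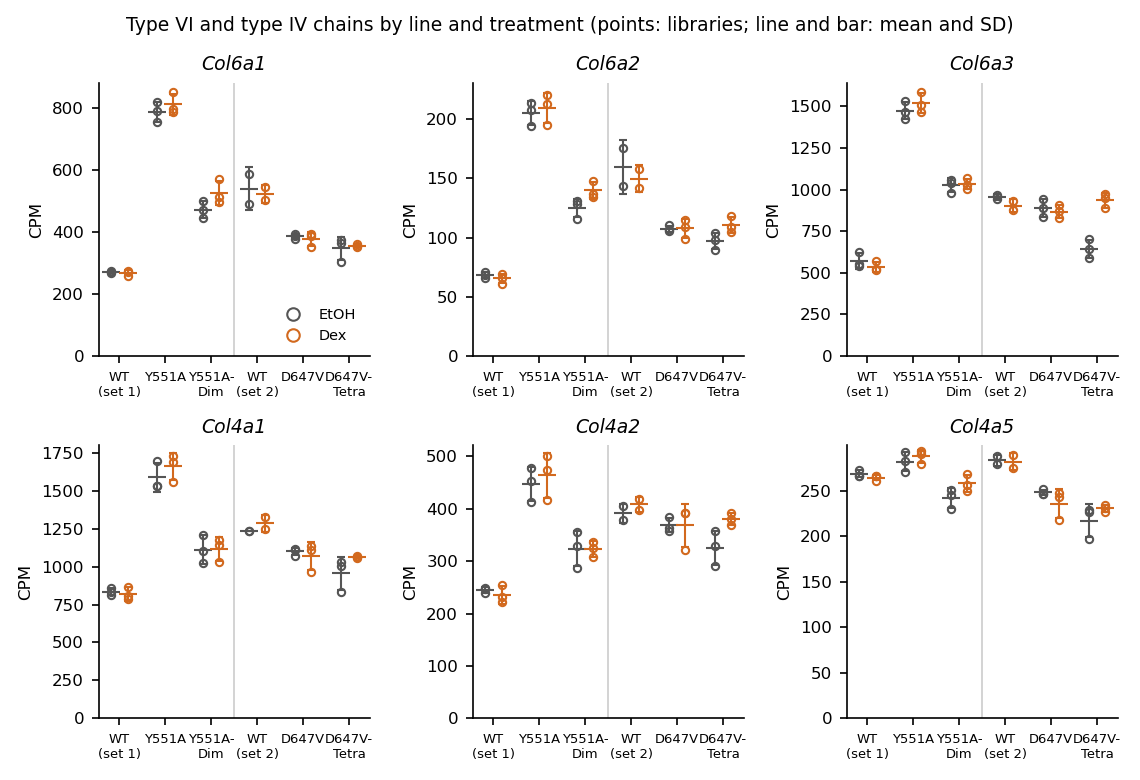
CPM of 3 type VI chains and 3 type IV chains in EtOH (grey) and Dex (orange) libraries of each line, with points for libraries and mean and SD as line and bar; the vertical line separates the sets. In EtOH, Col6a1 runs from 268 to 275 CPM in the WT of set 1 and from 753 to 819 in Y551A, and Col6a3 of D647V-Tetra runs from 588 to 701 in EtOH and from 887 to 975 with Dex.

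In the lines of set 2, Col6a1 and Col6a2 were lower than in the WT of the set, and Col6a3 was called lower in D647V-Tetra. In D647V, 8 of 28 genes were called, 3 higher and 5 lower, beside 7.36% of 17535 genes (4.58% higher, 2.78% lower). Among genes with an average log2 CPM above 1, 11.5% were called from 4 to 8 kb of exon and 10.9% over 8 kb. Col6a1 was at 588 and 490 CPM in WT EtOH and at 377, 387 and 394 in D647V (-0.48 ± 0.083), and Col6a2 at 176 and 144 against 110, 106 and 106 CPM (-0.57 ± 0.085). The groups did not overlap, which also held for 46 of the 70 partner genes described below. The 2 WT libraries differed by more than the 3 D647V libraries did. Col6a3, at 943 and 968 CPM in WT and 888, 944 and 833 in D647V, was not called (-0.11 ± 0.071), nor was the low gene Col6a4 (0.75 ± 0.418). Col1a2 was higher in D647V, at 2586, 2655 and 2553.5 CPM against 1881 and 2011 (0.42 ± 0.114, adjusted p = 0.034), and so was Col5a2, at 1011, 1027 and 1052.5 against 821 and 820 (0.33 ± 0.056). Col8a1 was lower (74.6, 79.8 and 81.3 against 92.7 and 98.1 CPM, -0.28 ± 0.049), as was Col4a6 (-0.26 ± 0.062). Col28a1 (-1.50 ± 0.440) and Col9a3 (0.99 ± 0.293) were called from at most 28 and 100 counts per library. The count of 8 fell to 3 without WT EtOH replicate 1 and to 4 to 6 without any other of the 5 libraries (5, 5 and 4 without D647V EtOH replicates 1, 2 and 3). Without WT EtOH replicate 1 Col6a1 was at -0.35 (adjusted p = 0.0716) and Col6a2 still passed (-0.42, adjusted p = 0.0244). The calls of Col1a2 and Col28a1 were lost without any 1 of the 5 libraries (adjusted p 0.0602 to 0.25 and 0.0568 to 0.229). The Col28a1 call was also lost with RLE scaling (0.0504) and without the low-count filter (0.15), that of Col9a3 without any but WT EtOH replicate 2 (0.0583 to 0.428) and with RLE scaling (0.0519), and that of Col4a6 without WT EtOH replicate 1 (0.164) or D647V EtOH replicate 3 (0.0649).

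In D647V-Tetra, 10 of 28 genes differed from WT, 1 higher and 9 lower, beside 18.7% of all genes (9.35% higher, 9.34% lower). Exon length moved with this baseline. Among genes with an average log2 CPM above 1, those over 8 kb had a median of -0.094 log2, with 36.8% called and 7.07% called higher. From 4 to 8 kb, 25.8% were called (13.7% higher). The part of length was not tested beyond an offset for exon length and GC content. The 3 type VI chains were lower, Col6a1 at 303, 364 and 373 CPM (-0.64 ± 0.083), Col6a2 at 89.9, 104 and 97.9 CPM (-0.72 ± 0.085) and Col6a3 at 588, 701 and 641 CPM against 943 and 968 in WT (-0.57 ± 0.070). All 4 type IV chains were lower too (Col4a2 -0.27 ± 0.084, Col4a1 -0.37 ± 0.078, Col4a5 -0.38 ± 0.064, Col4a6 -0.43 ± 0.061). Col4a1 was at 1235 and 1233 CPM in WT and 833, 1033 and 1002 in D647V-Tetra, and Col4a2 at 404 and 378 against 291, 357 and 328. No library of D647V-Tetra EtOH reached a WT library for any of these 7 genes. With 3 libraries against 2, such separation was common: 45 of the 70 partner genes described below did not overlap either. The share over all genes is not given here. Col6a4 was not called (0.94 ± 0.417). Col8a1 was lower by -0.41 ± 0.049 and the low gene Col28a1 by -1.95 ± 0.461. Col5a2 was the gene called higher, at 973, 1066 and 1074 CPM against 821 and 820 (0.34 ± 0.056). In EtOH the fibroblast list summed to 285 to 290 CPM in WT, 245 to 255 in D647V and 190 to 227.5 in D647V-Tetra, and the mesenchymal list to 7703 to 8187, 7176 to 7617 and 6273 to 6876. The basal list summed to 8.63 to 9.27, 3.81 to 4.46 and 4.38 to 5.18 CPM, and the endothelial list to 8.80 to 8.82, 3.96 to 4.82 and 3.88 to 4.25. These lists were below WT in both lines, as Col6a1 and Col6a2 were, and their part was not tested. The mesenchymal sum includes Fn1, a partner gene below, at 3301 and 3207 CPM in WT and 1798, 2188 and 1866 in D647V-Tetra. Other lists differed. The immune list was not below WT, at 7.745 to 8.435 CPM there, 8.104 to 9.417 in D647V and 8.066 to 9.129 in D647V-Tetra. The general epithelial list overlapped WT in both lines and the luminal list in D647V, while the chondrocyte and bone list was below WT in both. The Col4a2 call (adjusted p = 0.0353) was lost without WT EtOH replicate 1 (0.196) or 2 (0.0918) or D647V-Tetra EtOH replicate 1 (0.135) or 3 (0.0696) and with an offset for exon length and GC content (0.065), and that of Col28a1 without WT EtOH replicate 2 (0.0549). Against D647V, 1 of 28 genes was called in D647V-Tetra, Col6a3 at -0.47 ± 0.063 (adjusted p = 0.0019), beside 4.53% of all genes (0.53% higher, 4% lower). Of genes with an average log2 CPM above 1, 24.1% were called over 8 kb of exon (0.0988% higher) and 4.28% from 4 to 8 kb. D647V libraries held 888, 944 and 833 CPM of Col6a3, all above the D647V-Tetra values. The count rose to 2 without D647V-Tetra EtOH replicate 2.

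The WT lines of the sets were themselves unlike, and library set and line state cannot be told apart there. In EtOH, Col6a1 averaged 62.0 ± 0.793 CPM per kb (SD, n = 3) in the WT of set 1 and 123 ± 15.7 (n = 2) in that of set 2, and Col6a2 8.25 ± 0.281 and 19.2 ± 2.74. Col6a3 averaged 47.8 ± 3.88 and 79.9 ± 1.49, and Col4a1 112 ± 3.07 and 165 ± 0.203. Col1a2, at 206 ± 2.99 and 157 ± 7.39, and Col3a1, at 1.31 ± 0.0155 and 0.743 ± 0.058, were on the other side. Col4a5, at 40.0 ± 0.576 and 42.2 ± 0.923, and Col4a6, at 26.4 ± 0.383 and 26.6 ± 0.891, were close in both. No test was run across sets.

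**Figure D3:**
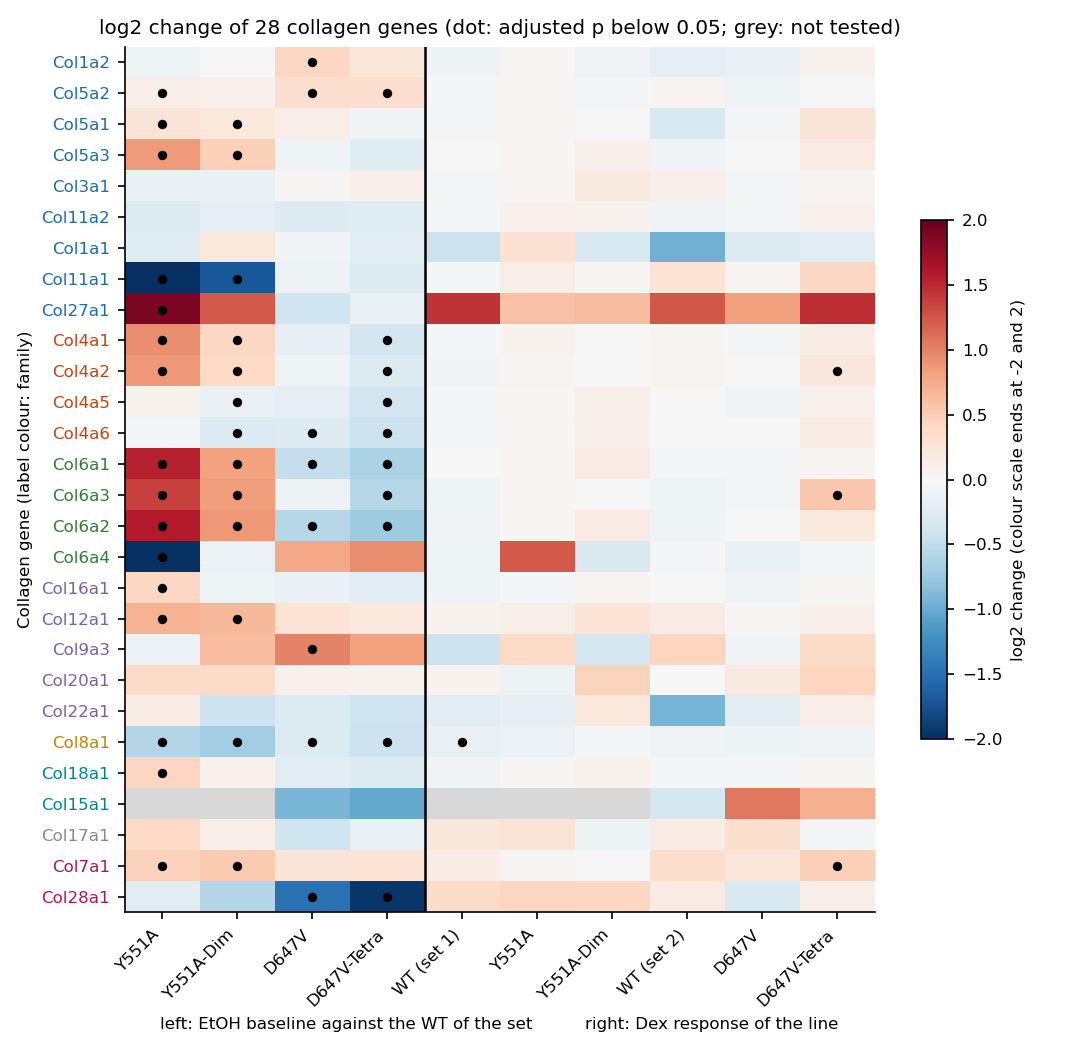
log2 change of each collagen gene in the EtOH baseline of a line against the WT of its set (left) and in the Dex response of each line (right); a dot marks an adjusted p below 0.05 and grey a gene not tested. Col6a1, Col6a2 and Col6a3 are red in Y551A and Y551A-Dim, and Col6a1 and Col6a2 blue in D647V and D647V-Tetra, while the Dex columns hold 4 dots.

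Dex for 2 h left most collagen genes without a call, as it left most of all genes. Over 6 lines, 4 of 165 gene-by-line responses of collagen genes passed the test, 3 of them in D647V-Tetra. The share of all genes called ran from 0.941% in D647V to 3.4% in the WT of set 1, and was 19.2% in D647V-Tetra. In the WT of set 1, 1 of 27 collagen genes was called, lower with Dex (3.4% of all genes called, 1.4% lower), and Col8a1 was the gene. Col8a1 codes for a chain of the type VIII network found in vessel walls and the cornea. It was at 135, 137 and 132 CPM in EtOH and 121, 124 and 120 with Dex, without overlap (-0.15 ± 0.039, adjusted p = 0.0288). The call was lost without any 1 of the 6 libraries (adjusted p 0.0595 to 0.205 with edgeR). The marker lists went both ways with Dex there. The fibroblast list was lower, at 248 to 254 CPM in EtOH and 221 to 230 with Dex, as were the mesenchymal, basal and endothelial lists. The luminal list was higher, at 11.3 to 12.4 and 22.6 to 25.2, and so was the chondrocyte and bone list, at 76.0 to 86.2 and 107 to 123. The immune and general epithelial lists overlapped. The part of these lists was not tested. The change of Col8a1 was below 0 in all 6 lines (-0.12 in Y551A, -0.04 in Y551A-Dim, -0.07 in the WT of set 2, -0.11 in D647V and -0.06 in D647V-Tetra), none of these 5 being called. The EtOH and Dex libraries of Col8a1 did not overlap in 5 of the 6 lines. Of the 70 partner genes described below, 7 (Y551A-Dim) to 26 (WT of set 2) did not overlap in a line. The share over all genes is not given here.

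No collagen gene was called by edgeR in the Dex response of Y551A (1.84% of all genes called), Y551A-Dim (1.09%), the WT of set 2 (1.72%) or D647V (0.941%). At an unadjusted p below 0.05 there were 1 of 27, 7 of 27, 2 of 28 and 2 of 28 genes, beside 8.69%, 11%, 9.31% and 7.12% of all genes. DESeq2 called 0, 2, 0 and 0 members, beside 2.21%, 2.93%, 2.45% and 1.35% of the genes it gave an adjusted p. The 2 genes that DESeq2 called in Y551A-Dim were higher with Dex. Without Y551A Dex replicate 2, edgeR called 1 gene in Y551A, and without Y551A-Dim Dex replicates 2 and 3 it called 1 and 2 genes in Y551A-Dim. The abundant Col1a2 had log2 changes of -0.10 in the WT of set 1 and -0.19 in that of set 2, and Col1a1 of -0.43 ± 0.194 and -0.96 ± 0.310. Col1a1 in the WT of set 2 was at 1.99 and 2.16 CPM in EtOH and 0.927 and 1.21 with Dex, an adjusted p of 0.217. None of these 4 changes was called. Changes of the 4 type IV genes in WT lay between -0.06 and 0.06 in both sets. Col27a1, a fibril-forming chain with at most 56 counts per library, was above 0 in all 6 lines (0.59 to 1.48) and called in none.

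**Figure D4:**
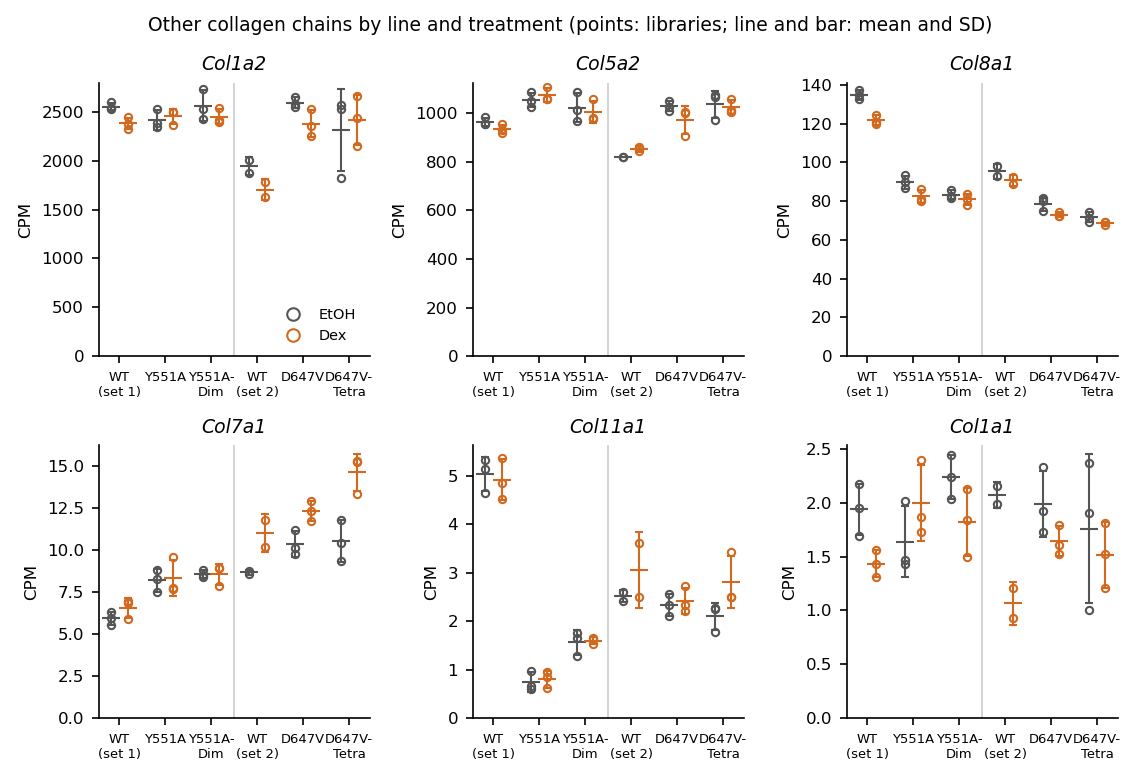
CPM of 6 further collagen chains in EtOH (grey) and Dex (orange) libraries of each line, with points for libraries and mean and SD as line and bar. Col8a1 runs from 132 to 137 CPM in EtOH and from 120 to 124 with Dex in the WT of set 1, and Col7a1 of D647V-Tetra from 9.32 to 11.8 in EtOH and from 13.3 to 15.3 with Dex.

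D647V-Tetra had 3 of 28 genes called, all higher with Dex, beside 19.2% of all genes called in that line (11.3% higher, 7.89% lower). Of genes with an average log2 CPM above 1, 40.8% were called over 8 kb of exon (39.2% higher). From 4 to 8 kb it was 19.2% (13.1% higher). Col6a3 was at 588, 701 and 641 CPM in EtOH and 887, 948 and 975 with Dex (0.54 ± 0.064, adjusted p = 1.98e-05). The Dex libraries were all above the EtOH libraries. Set beside the other lines of the set, which held 828 to 968 CPM with either treatment, 2 of the Dex libraries were inside that range and 1 was just above it, while all 3 EtOH libraries were below it. Col7a1 was at 9.32, 11.8 and 10.4 CPM in EtOH and 15.3, 13.3 and 15.2 with Dex (0.47 ± 0.093, adjusted p = 0.00236). Col7a1 was above 0 in the other lines of set 2 too, at 0.34 ± 0.116 in WT and 0.25 ± 0.093 in D647V, and neither was called. Col4a2 was at 291, 357 and 328 CPM in EtOH and 393, 380 and 368 with Dex (0.23 ± 0.076, adjusted p = 0.0464). Its call was lost without D647V-Tetra EtOH replicate 1 (0.15, adjusted p = 0.205) or 3 (0.102), or without Dex replicate 1 (0.142), 2 (0.0706) or 3 (0.0904). Without EtOH replicate 2 the count of called genes rose from 3 to 7, all higher, and without EtOH replicates 1 or 3 or Dex replicates 1 or 3 it was 2. The fit without EtOH replicate 2 keeps EtOH replicate 1, the library that correlated least with the rest of its set. Shares of all genes called in these fits are not given, so the counts do not show whether collagen genes changed more than others. The EtOH libraries of D647V-Tetra enter both this response and the low baseline of the line, so the baseline and the Dex change of Col6a3 are not independent.

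The other type VI chains were not called with Col6a3. In D647V-Tetra, the Dex response was 0.03 ± 0.075 for Col6a1 and 0.19 ± 0.077 for Col6a2, neither called. Per length, Col6a3 was 0.629 to 0.710 of Col6a1 in the EtOH libraries and 0.903 to 1.01 in the Dex libraries of D647V-Tetra. In D647V the same ratio averaged 0.843 ± 0.061 in EtOH and 0.845 ± 0.029 with Dex (SD, n = 3). In the WT of set 2 it was 0.588 and 0.723 in EtOH and 0.626 and 0.639 with Dex. The EtOH ratios of D647V-Tetra thus lay below those of D647V and within the range of WT, and its Dex ratios above those of both.

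Tested as a difference between lines, the Dex response of Col6a3 was larger in D647V-Tetra than in WT by 0.62 ± 0.10 (adjusted p = 0.00376) and than in D647V by 0.57 ± 0.090 (adjusted p = 0.00384). The 2 differences share the D647V-Tetra libraries. The Dex response of Col6a3 was -0.08 in WT and -0.03 in D647V, neither called. In these tests 1 of 28 members was called each time, beside 4.41% of all genes against WT and 0.873% against D647V. Calls were more frequent among long genes such as Col6a3. Over 8 kb of exon and with an average log2 CPM above 1, 19.9% were called against WT (19.6% higher). Against D647V it was 3.71% (3.66% higher). Against WT the count rose to 2 without D647V-Tetra EtOH replicate 2 or Dex replicate 2. Both differences kept their call in each fit that left out 1 library (adjusted p up to 0.0363 against WT and 0.0217 against D647V). The remaining differences of response had 0 members called by edgeR and by DESeq2: Y551A minus WT (0.18% of all genes called), Y551A-Dim minus WT (1.47%), Y551A-Dim minus Y551A (0.558%) and D647V minus WT (0.188%). At an unadjusted p below 0.05 they held 2, 4, 1 and 0 members, beside 6.31%, 8.98%, 8.02% and 6.87% of all genes, and DESeq2 called 0.444%, 2.12%, 1.2% and 0.476% of all genes it gave an adjusted p.

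Transcript length moved with the D647V-Tetra response. Among genes with an average log2 CPM above 1, the median Dex change in D647V-Tetra was -0.19 for exon lengths under 2 kb, -0.095 from 2 to 4 kb, -0.001 from 4 to 8 kb and 0.14 over 8 kb, where 79.3% of 2024 genes had a change above 0. In D647V the same medians were -0.05, -0.02, -0.01 and 0.01. Col6a3 has 11963 and Col7a1 10287 exon bases. Col1a2, with 12426, was at 0.07 in D647V-Tetra and Col12a1, with 15228, at 0.10, neither called. The part of length in the Col6a3 and Col7a1 results was not tested beyond the following offset. With a per-library offset for exon length and GC content, chosen after seeing the data, Col6a3 stood at 0.35 (adjusted p = 0.000204), Col7a1 at 0.33 (0.00481) and Col4a2 at 0.16 (0.0434). The Col6a3 differences of response stood at 0.40 against WT (0.0142) and 0.42 against D647V (0.00845), and its baseline against D647V, where genes over 8 kb had a median of -0.12, at -0.29 (0.00864). With this offset 5 members were called in the D647V-Tetra Dex response, 3 of them higher, and the share of all genes is not given here.

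**Figure D5:**
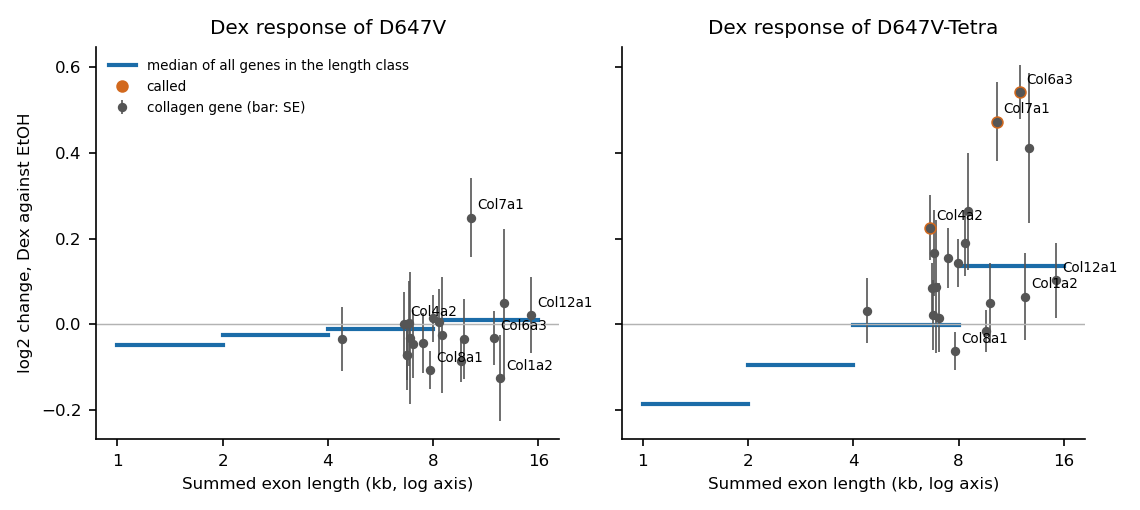
Dex response of collagen genes whose average log2 CPM was 1 or more against summed exon length (log axis) in D647V and D647V-Tetra, with SE bars, called genes in orange and blue lines at the median of all genes in each length class. In D647V-Tetra the class medians go from -0.19 under 2 kb to 0.14 over 8 kb, and Col6a3 lies above its class at 0.54.

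Genes that make, export, cross-link, bind or degrade collagen were described from 7 lists of 93 genes, of which 70 were tested in each set. In Y551A against WT, 31 were higher and 10 lower (58.6% called, against 42.5% of all genes). Of genes with an average log2 CPM above 1, 51.6% (under 2 kb of exon) to 56.5% (over 8 kb) were called by length class. The share of 58.6% thus lies near that of such genes. In the list of procollagen cleavage and cross-linking 7 of 11 were higher and 1 lower, and in that of procollagen export 5 of 8 were higher and 1 lower. The largest change within these 2 lists was that of Pcolce2, an enhancer of procollagen C-proteinase, at 7.88, 5.96 and 6.29 CPM in WT and 49.8, 46.8 and 45.3 in Y551A (2.81 ± 0.086), and at 23.5, 25.2 and 23.6 in Y551A-Dim (1.84 ± 0.087). The C-proteinase Bmp1 was higher by 0.57 in Y551A and 0.18 in Y551A-Dim, and the other enhancer, Pcolce, lower by -0.58 and -0.38. The COPII coat genes Sec23a and Sec24d, used in procollagen export, were higher by 0.43 and 0.41 in Y551A. Among the chain-modifying and folding genes 3 of 17 were higher and 4 lower, with the prolyl isomerase Fkbp14 at 1.30 ± 0.0993. Of the 10 basement membrane partners 7 were higher and 1 lower, with the laminin chains Lamb3 at 1.13 and Lamc1 at 0.48. Among collagen-binding proteins, 6 of 8 were higher and 2 lower, with changes from -1.48 to 3.83 and periostin (Postn) at 1.43 ± 0.0872. Among receptors 2 of 6 were higher and 1 lower, with Ddr1 at 0.44 and Mrc2 at -0.76. Of the 10 collagen-degrading genes and their inhibitors 1 was called, the membrane-bound protease inhibitor Reck (0.21). In Y551A-Dim against WT, 10 of the 70 were higher and 12 lower (31.4% called, against 23.3% of all genes). The length classes of genes with an average log2 CPM above 1 ran from 26.6% to 32.1% called, a range that holds 31.4%.

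In set 2, 5 of the 70 were higher and 5 lower in D647V against WT (14.3% called, against 7.36% of all genes), and 7 higher and 22 lower in D647V-Tetra (41.4%, against 18.7%). The length classes of genes with an average log2 CPM above 1 ran from 7.94% to 11.5% called in D647V. In D647V-Tetra they ran from 20.1% to 36.8%. The cross-linking enzyme Lox was higher in both lines (0.48 and 0.41), while its relative Loxl3 was lower (-0.49 and -0.65). In D647V-Tetra the basement membrane list had 1 of 10 higher and 5 lower, with perlecan (Hspg2) at -0.91 ± 0.178, and fibronectin (Fn1) was lower by -0.74 ± 0.0902. The count of 10 called partner genes in D647V fell to 4 without WT EtOH replicate 1 and 6 without D647V EtOH replicate 2, and that of 29 in D647V-Tetra to 18 without WT EtOH replicate 2.

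With Dex, 4 of the 70 partner genes were called in the WT of set 1 (3 higher, 1 lower), 4 in Y551A (3 and 1), 2 in Y551A-Dim (both higher), 3 in the WT of set 2 (2 and 1), 1 in D647V (higher) and 15 in D647V-Tetra (11 and 4). These are 5.71%, 5.71%, 2.86%, 4.29%, 1.43% and 21.4% of the 70, beside 3.4%, 1.84%, 1.09%, 1.72%, 0.941% and 19.2% of all genes, so the shares in D647V and D647V-Tetra lie near those of all genes. These counts rested on few libraries: Y551A had 1 without EtOH replicate 2 or Dex replicate 3 and 2 without EtOH replicate 1 or 3, and Y551A-Dim had 0 without Dex replicate 1, 1 without any 1 of its EtOH libraries and 4 without Dex replicate 2. D647V had 0 without Dex replicate 1 or 3 or any 1 of its EtOH libraries, and D647V-Tetra had 9 without EtOH replicate 3 and 7 without Dex replicate 1 or 3. Loxl3, a lysyl oxidase-like cross-linking enzyme, was at 34.5, 33.2 and 31.6 CPM in EtOH and 39.6, 40.3 and 39.0 with Dex in the WT of set 1. It rose there by 0.26 ± 0.053, in Y551A by 0.20, in the WT of set 2 by 0.41, in D647V by 0.26 and in D647V-Tetra by 0.69. In Y551A-Dim it was at 35.9, 32.5 and 31.4 CPM in EtOH and 30.7, 29.5 and 30.4 with Dex, and its response was lower than in WT by -0.40 ± 0.076 (adjusted p = 0.00223) and than in Y551A by -0.34 ± 0.075 (0.0235). The D647V-Tetra response was larger than that of D647V by 0.43 ± 0.083 (0.0252).

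Itga10, a collagen-binding integrin subunit, was low but rose with Dex, from 0.759, 0.910 and 0.628 CPM to 2.62, 2.92 and 2.49 in the WT of set 1 (1.80 ± 0.235). It also rose in Y551A (1.08), the WT of set 2 (2.37) and D647V-Tetra (1.18). In D647V its change was 1.23 ± 0.298 without overlap, which was not called (adjusted p = 0.0715). Its response in Y551A-Dim was below that of WT by -2.0 ± 0.356 (adjusted p = 0.00106). Thrombospondin 1 (Thbs1), a collagen-binding matrix protein, fell in the WT of set 1 from 2821, 2791 and 2863 CPM to 1959, 2100 and 1944 (-0.50 ± 0.045). It fell by 0.17 in Y551A, by 0.46 in the WT of set 2 and by 0.25 in D647V-Tetra, and in Y551A and Y551A-Dim the response was above that of WT by 0.33 ± 0.063 and 0.57 ± 0.063.

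In D647V-Tetra, Fn1 went from 1798, 2188 and 1866 CPM in EtOH to 3206, 2801 and 3055 with Dex (0.63 ± 0.082), while the WT of set 2 had 3301 and 3207 in EtOH and 2647 and 2429 with Dex. Perlecan (Hspg2), at 118, 185 and 145 CPM in EtOH and 279, 195 and 276 with Dex, rose by 0.74 ± 0.162. Lamc1 rose by 0.36 and Lama5 by 0.50 in the same line. These are long transcripts, with 11685 (Fn1), 14307 (Hspg2), 8272 (Lamc1) and 11388 (Lama5) exon bases, in a line whose genes over 8 kb had a median change of 0.14. With the length and GC offset, chosen after seeing the data, their changes were 0.44, 0.52, 0.25 and 0.33, and all 4 kept their call (adjusted p 6.4e-05, 0.00476, 0.000533 and 0.00228). The EtOH libraries of D647V-Tetra were the low ones for Fn1: its Dex values lay inside the range of 2410 to 3301 CPM found in the WT and D647V libraries of the set.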

How the data were processed

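The files hold raw counts of reads per gene, deposited by the authors for each of 34 libraries; per the file headers they were made with featureCounts 2.0.3 with strand option 2, and per the submitters' processing notes reads were aligned with STAR to mm10. Gene positions and exon lengths are those of GENCODE vM21. Counts were scaled by TMM and tested in each set on its own, after edgeR's low-count filter, with edgeR 4.0.16 (quasi-likelihood test, limma 3.58.1, R 4.3.3). There were 16140 genes tested in set 1 and 17535 in set 2, with Benjamini-Hochberg adjustment over all of them and a threshold of 0.05. A gene is called where its adjusted p is below this. A log2 change is given with a standard error taken from the quasi-likelihood F. Replicates varied by 5.13% in set 1 and 8.62% in set 2 (edgeR's common dispersion, as a coefficient of variation). On simulated data for the Dex response of WT, 79.4% of genes changed 1.5-fold and 86.7% of those changed 2-fold were recovered in set 1 (15654 genes), and 52.6% and 82.1% in set 2 (16919 genes).

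The members and gene lists were chosen with earlier results of these data known. Any kept member could be named; values for every library were due to those called with Dex or in a difference of responses, to the 3 highest and 3 lowest called without overlap in each baseline (average log2 CPM of at least 1), and to Col1a1, Col1a2, Col4a1 and Col4a2. Of each partner list, up to 3 called genes with the lowest adjusted p per comparison were named. The Col6a3 to Col6a1 ratio and the comparison with exon length were chosen after the values were seen. Alternatives were RLE scaling, DESeq2 1.42.0, no low-count filter, a replicate block, leaving out each library, and an exon length and GC offset chosen after seeing the data. The closest pair of replicates differed by more than sampling noise (chi-square per gene 2.86). The widest pairs were in D647V-Tetra EtOH, where replicate 1 gave 64.44 against replicate 2 and 70.41 against replicate 3. Replicates 2 and 3 of that group gave 15.52. Of the kept genes, Col22a1, Col12a1, Col1a1, Col5a2 and Col9a3 have no entry in the promoter table used.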

Additional observations from a re-analysis of the deposited data

Results flagged for a closer look

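The items here are Dex responses that differed between lines by edgeR's test of the difference itself (quasi-likelihood, Benjamini-Hochberg adjusted over all genes of the set). Among the collagen genes this was Col6a3, whose response in D647V-Tetra was above that of WT by 0.62 ± 0.10 log2 (adjusted p = 0.00376) and above that of D647V by 0.57 ± 0.090 (0.00384). Of genes over 8 kb of exon with an average log2 CPM above 1, 19.9% were called against WT and 3.71% against D647V.

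Among the partner genes, the response of Thbs1 was above that of WT by 0.33 in Y551A (adjusted p = 0.0201) and by 0.57 in Y551A-Dim (8.53e-07). In Y551A-Dim, Fn1 responded more than in WT by 0.41 (0.0273), and Itga10 less by -2.0 (0.00106). Loxl3 in Y551A-Dim was below WT by -0.40 (0.00223) and below Y551A by -0.34 (0.0235). In D647V-Tetra against WT, the differences were 0.99 for Fn1 (0.000821), 0.36 for Lamc1 (0.0165), 0.69 for Lama5 (0.0368) and 1.15 for Hspg2 (0.0183). In D647V-Tetra against D647V they were 0.57 for Fn1 (0.0292), 0.31 for Lamc1 (0.0468) and 0.43 for Loxl3 (0.0252). With the length and GC offset the Lamc1 difference from D647V lost its call (0.22, adjusted p = 0.111), and the other D647V-Tetra differences given here kept theirs. The D647V-Tetra differences share the same EtOH libraries, and the number of partner genes called in them ranged from 1 to 7 against WT and from 0 to 5 against D647V when a library was left out.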

How the results depend on the processing

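No called change of a collagen gene reversed under any alternative run. Of 67 called changes, 14 lost their call without at least 1 library. With all libraries kept, the planned settings gave 256 of 265 values with the call kept and 9 without it, and the length and GC offset, chosen after seeing the data, 66 of 67. Without the low-count filter the number of called collagen genes was 2 in the Y551A-Dim Dex response, 1 in Y551A-Dim minus WT, 2 in the Dex response of the WT of set 2, 6 in that of D647V-Tetra, 7 for D647V-Tetra against D647V, 3 in D647V-Tetra minus WT and 2 in D647V-Tetra minus D647V. DESeq2 gave 2 in the Y551A-Dim Dex response and 3 for D647V-Tetra against D647V. The offset gave 1 in the Dex response of Y551A, 3 in Y551A-Dim, 1 in the WT of set 2 and 5 in D647V-Tetra. Shares of all genes called in these fits are not given here, save for DESeq2 in the Y551A-Dim Dex response (2.93%). The counts therefore do not show whether collagen genes changed more than other genes. Without the filter, the edgeR adjusted p of the Col6a3 Dex response in D647V-Tetra was 5.91e-19, against 1.98e-05 with it. The causes were not tested.

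When each library was left out in turn, the number called ranged from 0 to 0 (1 with all libraries) for Dex in the WT of set 1, 0 to 1 in Y551A, 0 to 2 in Y551A-Dim and 2 to 7 in D647V-Tetra. Baselines gave 3 to 6 for D647V against WT, 9 to 12 for D647V-Tetra against WT, 1 to 2 for D647V-Tetra against D647V, 15 to 17 for Y551A against WT, 13 to 14 for Y551A-Dim against WT and 11 to 14 for Y551A-Dim against Y551A. D647V-Tetra minus WT gave 1 to 2. The other comparisons kept their count. The shares of all genes called with a library left out are not given here.

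With the replicate number as a block, 5 collagen genes were called for D647V against WT in place of 8, and 62 of 67 called changes kept their call. The samples share only a number: same-numbered EtOH and Dex libraries correlated at -0.342 to 0.057 in set 1 and -0.646 to 0.085 in set 2 after group means were removed, and a Dex library was closest to its own number in 1 of 9 and 0 of 8 cases. Genes with few counts (Col6a4, Col27a1, Col28a1) had wide errors, and 2 WT libraries per treatment limit set 2.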
